A study of Rattus norvegicus with 6 samples.

Results

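The mRNAs described here encode 10 enzymes that make or remodel phosphatidylcholine (PC) and phosphatidylethanolamine (PE) in the liver, namely Pemt, Pcyt1a, Pcyt2, Chka, Chpt1, Cept1, Etnk2, Lpcat3, Ptdss1 and Pisd. They were taken by gene symbol from the deposited table of 33022 loci, of which 32158 carried a symbol. Each of the 10 symbols was found at 1 locus, and all 10 had a mean of at least 1 FPKM (fragments scaled to transcript length and to library size) over the libraries, as did 10201 loci with a symbol in all, which are called the loci compared.

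The livers came from male obesity-prone Sprague Dawley rats that ate a control diet (CD) or a Western diet (WD, rich in milk fat and sucrose and with added cholesterol) for 2 weeks, were fasted overnight and were then briefly refed the same diet. RNA was sequenced from whole liver (total RNA) and from both parts of a sucrose gradient, the light fraction with mRNAs on 3 or fewer ribosomes and the heavy fraction with mRNAs on 4 or more. Each of the 6 libraries holds RNA pooled from 3 rats, and each combination of diet and RNA has 1 library, so there are no replicates, no p-value can be given, and rats of a pool cannot be told apart. FPKM values are per length, so different genes can be ordered by them within a library, but they are relative to the RNA of that library. An mRNA that makes up more of a fraction cannot be told apart from a fraction with less of other RNA, and less RNA per cell cannot be told apart from fewer cells of a type.

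PC is the main phospholipid of hepatocyte membranes, of bile and of the surface of lipoproteins, and the liver needs it to secrete very low density lipoprotein. In the CDP-choline branch of the Kennedy pathway, choline is phosphorylated, activated with CTP and joined to diacylglycerol. A parallel branch makes PE from ethanolamine, and hepatocytes also turn PE into PC by methylation, a route that is minor in most other tissues. Phosphatidylserine (PS) links to PE through a mitochondrial decarboxylase, and reacylation of lysophospholipids then sets which fatty acids the finished lipid carries.

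All 8 hepatocyte markers checked were above 0 in every library, and their summed level lay between 35825 and 119384 FPKM. Markers of other liver cells were far lower, with sums of 33.7 to 94.8 FPKM for 5 Kupffer cell and macrophage markers, 32.7 to 46.5 FPKM for the 3 endothelial markers found, 40.4 to 75.2 FPKM for the 4 stellate cell markers found, and 0 to 4.35 FPKM for the 3 cholangiocyte markers found. Of 3 adipocyte markers, Adipoq and Plin1 were listed at 0 throughout, and Fabp4, which macrophages and endothelium can also express, was at 7.36 to 20.1 FPKM. The 5 blood cell markers, mostly globins, were highest in the WD light fraction at 499 FPKM, against 81.6 FPKM in the CD light fraction and between 9.36 and 48.4 FPKM elsewhere. By the fragments that could be inferred from the FPKM values, the WD light fraction was also the deepest library. It held 376672 of them, against 179318 to 255590 in each of the other libraries. The part of the globins and of the depth in the light fraction results was not tested.

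For 6 of the enzymes the number of sequenced fragments behind each value could be inferred from the FPKM values, so a 95% exact interval of a ratio could be computed. These intervals hold for the sequenced libraries and for counting error alone, since the rats behind a diet were not measured one by one. For Chka, Etnk2, Ptdss1 and Pisd, whose loci have 2 or 3 start sites, no fragment numbers were found and ratios are given without an interval. The bounds that the software deposited with each FPKM value are far wider than counting error. For each of the 10 mRNAs they overlapped between the diets in total RNA, in the light fraction and in the heavy fraction, and between the fractions within each diet. The share of all loci with such overlap was not computed, so this overlap describes the width of the bounds and is not a result about these mRNAs.

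In total RNA the 10 mRNAs spanned a wide range of levels, and the diets gave nearly the same order. Chpt1 and Pemt were the most abundant, at 79.6 and 78.6 FPKM in CD and 75.0 and 63.6 FPKM in WD, which for Pemt is above 93.1% (CD) and 91.9% (WD) of the loci compared. Etnk2, Chka, Pcyt2 and Cept1 followed with 26.9 to 61.3 FPKM in CD and 27.6 to 63.1 FPKM in WD. Lpcat3, Ptdss1 and Pcyt1a were between 6.98 and 11.3 FPKM in both. Pisd was last, listed at 0 in CD and at 0.990 FPKM in WD. Of the neighbours in this order, only Pcyt1a and Pisd in CD had bounds that did not overlap, and there Pisd has no bounds above 0.

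**Figure D1:**
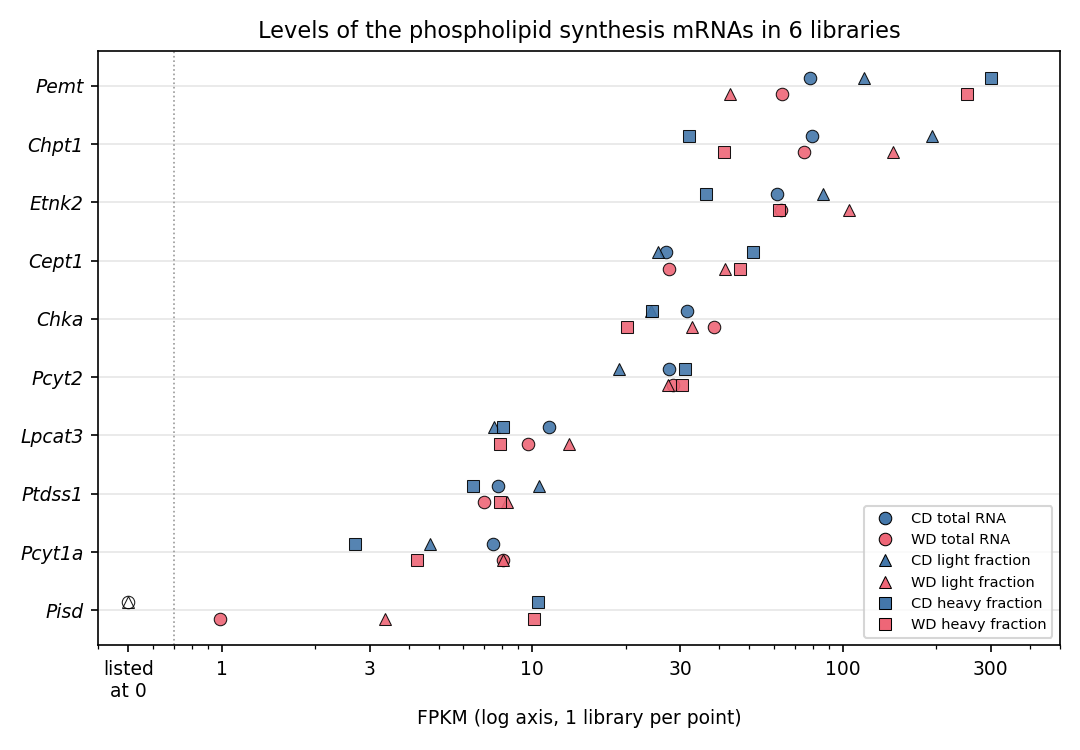
FPKM of each mRNA (rows, ordered by mean level) on a log axis in the 6 libraries, with CD in blue and WD in red, circles for total RNA, triangles for the light fraction and squares for the heavy fraction. Each point is 1 library, and open symbols at the left mark the CD total RNA and CD light fraction values of Pisd that are listed at 0. Pemt lies farthest right in the heavy fraction (301 and 251 FPKM), whereas Chpt1 lies farthest right in the light fraction (194 and 145 FPKM).

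Pemt encodes the phosphatidylethanolamine N-methyltransferase, which converts PE to PC with methyl groups from S-adenosylmethionine. Its locus is at chr10:46339820-46404642 (Rnor_6.0, coordinates as deposited). It was at 78.6 FPKM in CD and 63.6 FPKM in WD total RNA, at 117 and 43.5 FPKM in the light fractions, and at 301 and 251 FPKM in the heavy fractions. The heavy fraction was the highest of the 3 RNAs in both diets, and the WD light fraction was the lowest of the 6 libraries. These values rest on 62 and 48 fragments in total RNA, 63 and 51 in the light fractions and 151 and 129 in the heavy fractions.

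Pemt was the member with the highest heavy to light ratio in both diets among those above 0 in both fractions. The ratio was 2.57 in CD (interval 1.91 to 3.51) and 5.77 in WD (4.14 to 8.14), above 86.2% and 97.95% of the loci compared. The ribosome density change, which is the heavy to light ratio in WD over that in CD, was 2.24 (1.41 to 3.56). Pemt is one of the steatosis mRNAs that the study listed by their ribosome density in these libraries, so the value is a description and not independent evidence. By fraction, the difference was in the light one, where the WD to CD ratio was 0.372 (0.252 to 0.547), while it was 0.834 (0.654 to 1.06) in the heavy fraction and 0.809 (0.543 to 1.2) in total RNA. Set against total RNA instead, the heavy to total ratio of Pemt was 3.83 in CD and 3.94 in WD, and the change was 1.03 (0.646 to 1.65).

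Chpt1 encodes choline phosphotransferase 1, which joins CDP-choline to diacylglycerol in the last step of PC synthesis from choline. At chr7:29029262-29070928 it had 79.6 and 75.0 FPKM in CD and WD total RNA, 194 and 145 FPKM in the light fractions and 32.0 and 41.4 FPKM in the heavy fractions. It was the highest of the 10 mRNAs in both light fractions but the fourth in both heavy fractions. Its heavy to light ratio was the lowest of the group in both diets, at 0.165 in CD (interval 0.109 to 0.241, from 31 and 202 fragments) and 0.285 in WD (0.201 to 0.395, from 41 and 328 fragments), above only 2.74% and 9.22% of the loci compared.

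Cept1 encodes choline/ethanolamine phosphotransferase 1, a relative of Chpt1 that accepts both CDP-choline and CDP-ethanolamine. At chr2:209118921-209160653 it was at 26.9 and 27.6 FPKM in CD and WD total RNA, 25.3 and 41.7 FPKM in the light fractions and 51.5 and 46.8 FPKM in the heavy fractions. The heavy fraction was the highest of the 3 RNAs in both diets, the reverse of Chpt1. The heavy to light ratio of Cept1 was 2.04 (1.36 to 3.10) in CD and 1.12 (0.825 to 1.52) in WD. Chpt1 had 0.0810 times the heavy to light ratio of Cept1 in CD (interval 0.0452 to 0.145) and 0.254 times in WD (0.160 to 0.402).

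The same comparison within a diet, in which the scaling of the libraries cancels, was made for the 15 pairs of the 6 mRNAs with fragment numbers. The interval of the ratio of ratios excluded 1 for 7 pairs in CD and 8 in WD, of which 5 pairs were the same. The share over pairs of other loci was not computed, so these counts are a description of the 6 mRNAs alone. The 5 pairs shared by both diets were Chpt1 with Pemt, with Pcyt2 and with Cept1, and Pcyt1a with Pemt and with Cept1. The widest gap was between Pemt and Chpt1, at 15.6 in CD (9.44 to 26.0) and 20.2 in WD (12.5 to 32.9). No such difference was detectable in either diet between Pcyt2 and Cept1, for which the ratio was 0.802 (0.404 to 1.61) in CD and 0.989 (0.589 to 1.65) in WD.

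**Figure D2:**
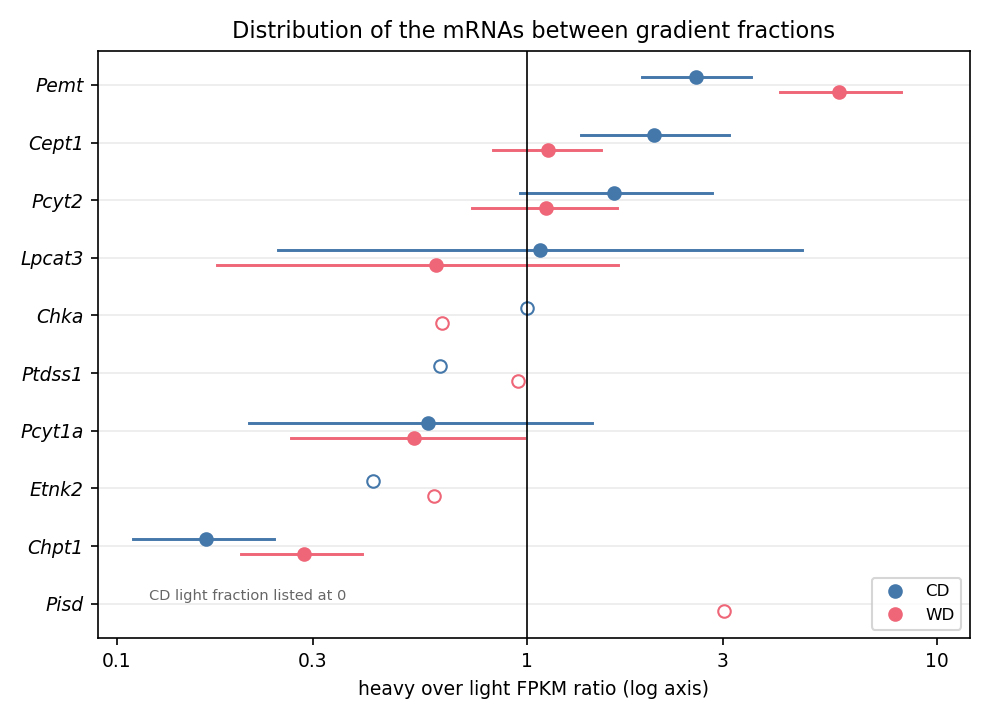
Ratio of heavy to light FPKM on a log axis for each mRNA in CD (blue) and WD (red), ordered by the CD value. Filled points carry a 95% exact interval for counting error (lines), open points have none, and no CD value is drawn for Pisd, whose CD light fraction is listed at 0. Pemt lies above 1 and Chpt1 below 1 in both diets, with intervals that do not reach 1.

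Enzymes earlier in both branches lay between these ends. Chka encodes choline kinase alpha, which phosphorylates choline. At chr1:219077770-219126220 it was at 31.5 and 38.4 FPKM in CD and WD total RNA, 24.2 and 32.6 FPKM in the light fractions and 24.2 and 20.3 FPKM in the heavy fractions. Its heavy to light ratio was 1.00 in CD and 0.622 in WD. Both of its fractions were below total RNA in each diet.

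Pcyt1a encodes the alpha form of CTP:phosphocholine cytidylyl transferase, which catalyses the step that limits the rate of the CDP-choline branch. At chr11:71548221-71591502 it was at 7.47 and 8.03 FPKM in CD and WD total RNA, 4.68 and 8.04 FPKM in the light fractions and 2.68 and 4.25 FPKM in the heavy fractions. It was the lowest of the 10 mRNAs in both heavy fractions, where it had 8 and 13 fragments. Its heavy to light ratio was 0.573 (0.210 to 1.44) in CD and 0.529 (0.266 to 0.980) in WD.

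In the ethanolamine branch, Etnk2 encodes an ethanolamine kinase and Pcyt2 the cytidylyl transferase that activates phosphoethanolamine. Etnk2 (chr13:50481162-50499140) was at 61.3 and 63.1 FPKM in CD and WD total RNA, 86.2 and 105 FPKM in the light fractions and 36.3 and 62.2 FPKM in the heavy fractions. Like Chpt1, it was higher in the light than in the heavy fraction of both diets, with heavy to light ratios of 0.421 and 0.593. Pcyt2 (chr10:109788349-109795697) was at 27.6 and 28.3 FPKM in total RNA, 19.1 and 27.3 FPKM in the light fractions and 31.1 and 30.4 FPKM in the heavy fractions. With Ptdss1 it had the narrowest range over the libraries, the highest value being 1.63 times the lowest. Its heavy to light ratio was 1.63 (0.960 to 2.82) in CD and 1.11 (0.733 to 1.66) in WD, both with intervals that include 1.

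Ptdss1 encodes PS synthase 1, which exchanges the choline of PC for serine, and Pisd encodes the PS decarboxylase of mitochondria, which makes PE. Ptdss1 (chr7:71273274-71356153) was at 7.74 and 6.98 FPKM in CD and WD total RNA, 10.5 and 8.29 FPKM in the light fractions and 6.46 and 7.88 FPKM in the heavy fractions. Its heavy to light ratio was 0.614 in CD and 0.95 in WD, without an interval. The deposited lower bound of Ptdss1 was 0 in every library, so these ratios are uncertain. Pisd (chr14:83298673-83346738) was at 10.4 and 10.2 FPKM in the heavy fractions of CD and WD with 3.36 FPKM in the light fraction of WD, and it was listed at 0 in CD total RNA and in the CD light fraction. No ratio is given against those libraries, and in WD its heavy to light ratio was 3.03. The deposited lower bound of Pisd was 0 in every library, with upper bounds of 12.5 and 25.2 FPKM in the WD light and heavy fractions. Its ratio is therefore uncertain.

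Lpcat3 encodes the lysophospholipid acyltransferase that places polyunsaturated fatty acids in PC and PE. At chr4:157181794-157230647 it was at 11.3 and 9.67 FPKM in CD and WD total RNA, 7.52 and 13.1 FPKM in the light fractions and 8.07 and 7.88 FPKM in the heavy fractions. It had 5 fragments in each of 3 fraction libraries and 19 in the WD light fraction. Its heavy to light ratio was 1.07 (0.247 to 4.67) in CD and 0.60 (0.175 to 1.66) in WD, so no direction was detectable at this depth.

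Counted over the group, the heavy to light ratio was at least 1.5 for 3 of the 9 mRNAs above 0 in both CD fractions and at most 0.75 for 4. Among all loci compared and above 0 in those libraries the shares were 33.9% and 35.4%. In WD, 2 of 10 were at or above 1.5 (Pemt, and Pisd with lower bounds of 0) and 5 at or below 0.75, against 33.5% and 35% of all loci. Of the 6 members with intervals, 2 lay above 1 and 1 below in CD, against 16.6% and 13.7% of loci. In WD, 1 lay above and 2 below, against 20.3% and 16.6%. Loci with more fragments have narrower intervals, so these shares are not matched for depth.

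In total RNA the abundance of these mRNAs was compared between 1 pooled library per diet, which describes the libraries and cannot separate diet from differences between rats. For the 9 mRNAs above 0 in both libraries the WD to CD ratio lay between 0.809 (Pemt) and 1.22 (Chka), and 0 of 9 were at or above 1.5 or at or below 0.75. Among the loci compared, 16.4% were at or above 1.5 and 21.5% at or below 0.75, and with a mean of at least 10 FPKM the shares were 8.09% and 15.2%. The median log2 change, computed after adding 0.1 FPKM, was 0.037 with 5 of 9 higher in WD. Over all loci the median was 0.042, with 52.32% higher in WD. All 6 intervals included 1, the narrowest being that of Chpt1 (ratio 0.942, 0.720 to 1.23), where 3.45% of the loci with fragment numbers had an interval above 1 and 3.62% one below 1.

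The heavy fractions gave a similar picture. In 2 of the 10 mRNAs the WD to CD ratio was at least 1.5, for Etnk2 (1.71) and Pcyt1a (1.59, interval 0.609 to 4.42), and in 0 it was at most 0.75, against 19.4% and 25.3% of all loci. All 6 intervals included 1, where 3.25% of loci had an interval above 1 and 4.04% one below. The median log2 change was -0.034, beside -0.033 over all loci, and 4 were higher and 6 lower in WD, against 46.41% and 53.59% of all loci.

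The light fractions differed more between the diets. Of 9 mRNAs, 6 were higher in WD, against 49.71% of all loci, with a median log2 change of 0.43 beside -0.0050 over all loci. The WD to CD ratio was at least 1.5 for Pcyt1a (1.72, interval 0.958 to 3.27), Cept1 (1.65, 1.14 to 2.42) and Lpcat3 (1.75, 0.631 to 5.99), where 22.5% of all loci were. It was at most 0.75 for Pemt (0.372, above) and Chpt1 (0.747, 0.625 to 0.894), where 28.2% of all loci were. The interval lay above 1 for 1 of 6 mRNAs and below 1 for 2, against 7.76% and 9.56% of loci with fragment numbers. These mRNAs (Cept1, Pemt and Chpt1) had 38 to 328 fragments per light library, against medians of 10 and 23 over loci compared. Intervals narrow as fragments increase. When every library was rescaled to the same sum over loci with a symbol, after which the median log2 change of all loci was -0.35, the ratio of Cept1 was 1.29 (0.894 to 1.90), that of Chpt1 0.585 (0.489 to 0.70) and that of Pemt 0.292 (0.198 to 0.429). Under this rescaling 0 of 9 were at or above 1.5, and the ratio of Etnk2 turned from 1.22 to 0.952.

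**Figure D3:**
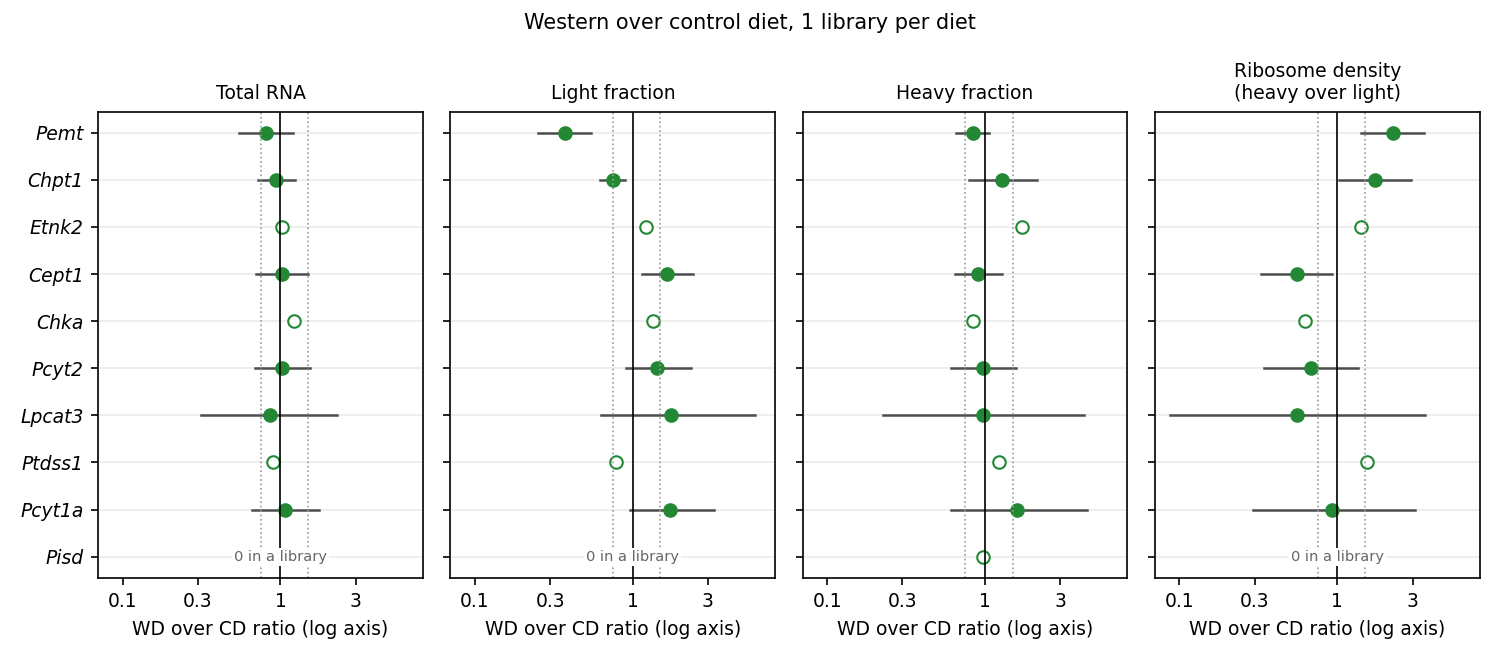
WD over CD ratio of FPKM on a log axis for each mRNA in total RNA, the light fraction, the heavy fraction and the heavy to light ratio (ribosome density). Filled points carry a 95% exact interval for counting error, open points have none, dotted lines mark 0.75 and 1.5, and Pisd is marked where a library is listed at 0. Points lie close to 1 in total RNA, and the interval of Pemt stays below 1 in the light fraction and above 1 for ribosome density.

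The ribosome density ratios of the members lay on both sides of 1, as did those of all loci. The study's methods set thresholds of 1.5 and 0.75 for CD relative to WD, whereas here the same numbers were applied to the WD to CD ratio. The calls are therefore not those of the study's rule, under which Etnk2 would be called and Pcyt2 would not. The WD to CD ratio reached 1.5 in 3 of 9 mRNAs, against 26.6% of all loci. These were Pemt (2.24), Chpt1 (1.73, interval 1.02 to 2.95) and Ptdss1 (1.55). Ptdss1 fell below 1.5 when 1 FPKM rather than 0.1 FPKM was added. The ratio was 0.75 or lower in 4, against 32.8% of all loci. These were Cept1 (0.552, 0.328 to 0.926), Lpcat3 (0.559, 0.0875 to 3.62), Chka (0.621) and Pcyt2 (0.680, 0.342 to 1.35). Etnk2 (1.41) and Pcyt1a (0.924, 0.290 to 3.10) lay between the thresholds as applied here. The median log2 change was -0.12, beside 0.0079 over all loci. It turned to 0.20 with libraries rescaled to the same sum, beside 0.33 over all loci, and to 0.19 with the heavy fraction set against total RNA, beside -0.010.

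The interval of the density ratio lay above 1 for Pemt and Chpt1 and below 1 for Cept1, which is 2 and 1 of the 6 mRNAs with fragment numbers, against 5.63% and 4.33% of loci. More fragments give narrower intervals, and Pemt, Chpt1 and Cept1 had 31 to 328 per fraction library. The medians over loci compared were 9 to 23. The call of Cept1 depended on the scaling, and all 3 calls depended on the measure. The deposited normalization gives a fragment a different weight in each library. An mRNA with equal fragments in all 4 fraction libraries thus has a density ratio of 2.12. The fragments of Pemt were lower in WD in both fractions, from 63 to 51 and from 151 to 129. Over all loci with fragment numbers, the light library held 179318 fragments in CD and 376672 in WD, and the heavy library 188782 and 188915. With libraries rescaled to the same sum, the ratio was 2.81 for Pemt (1.78 to 4.47), 2.17 for Chpt1 (1.28 to 3.71) and 0.693 for Cept1 (0.412 to 1.16). Against total RNA in place of the light fractions, the change was 1.37 for Chpt1 (0.778 to 2.43) and 0.884 for Cept1 (0.525 to 1.49), and together with the 1.03 of Pemt all intervals included 1. The light fractions also differed between the diets in globins and in depth, as given above, and the part of either in these values was not tested.

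The other genes around these enzymes were taken from a list of 56, of which 43 had a mean of at least 1 FPKM, 10 were below it and 3 were not matched by symbol. In total RNA, 18 of the 43 were higher in WD and 25 lower, against 52.32% and 47.68% of all loci. The median log2 change was -0.027, and 2 were at or above a ratio of 1.5 and 14 at or below 0.75, where 16.4% and 21.5% of all loci were. All 6 phospholipid transport mRNAs compared were lower in WD, with ratios from 0.634 for Pctp (interval 0.410 to 0.970), a PC transfer protein, to 0.883 for Stard10, and 5 of them were at or below 0.75. Of all loci, 47.68% were lower in WD and 21.5% at or below 0.75. Only 3 of the 6 had an interval, and that of Pctp alone excluded 1. The direction held for total RNA only, since 3 were higher and 3 lower in WD in the light and in the heavy fraction. Methyl donor supply and betaine use held the other intervals below 1, at 0.704 for Bhmt (0.617 to 0.803), which remethylates homocysteine with betaine, and at 0.819 for Ahcy (0.70 to 0.958), which removes the S-adenosylhomocysteine that PE methylation leaves. Of the 6 enzymes that oxidise choline or use betaine, 3 were higher and 3 lower in WD total RNA, and only Bhmt had an interval that excluded 1. Their heavy to light ratio was above 1 for 6 of 6 in CD and 5 of 6 in WD, against 53.72% and 52.33% of all loci. The exception was Bhmt in WD at 0.967 (0.829 to 1.13), and the highest was Sardh, the sarcosine dehydrogenase, at 3.99 in CD and 3.78 in WD. The interval lay above 1 for 6 in CD and 4 in WD, where 16.6% and 20.3% of all loci with fragment numbers had one, and loci with more fragments have narrower intervals. A heavy to light ratio above 1 was not particular to the enzymes that oxidise choline or use betaine. In both diets it was also found for 5 of 5 diacylglycerol and CTP supply genes and 4 of 4 methyl donor supply genes. Over the whole list it was above 1 for 25 of 41 genes in CD, with 16 lower, and for 30 of 43 in WD, with 13 lower. Phospholipid breakdown genes were split 6 to 6 in abundance. Mat1a, the S-adenosylmethionine synthase of adult liver, was at 220 FPKM in CD and 231 FPKM in WD.

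Across the list, the highest abundance changes were those of Lpin3, a phosphatidate phosphatase, and Ctps2, a CTP synthase. Their ratios were 2.27 (0.803 to 7.27, from 6 and 13 fragments) and 1.74 (0.884 to 3.56). The lowest were those of Slc44a2, a choline transporter-like protein, at 0.402 (0.112 to 1.2), and of Mboat1, an acyltransferase, at 0.418 (0.0398 to 2.55, from 5 and 2 fragments). All 4 intervals included 1.

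For ribosome density, 24 of the 41 list genes above 0 in all 4 fraction libraries were higher in WD and 17 lower, against 50.34% and 49.66% of all loci. The median log2 change was 0.11, and 14 were at or above 1.5 and 9 at or below 0.75, where 26.6% and 32.8% of all loci were. The highest were Lpcat2, an acyltransferase, at 13.3 (0.789 to 750, with 1 fragment in the CD heavy fraction) and Pitpna, a phosphatidylinositol and PC transfer protein, at 2.95. The lowest were Ctps1, the other CTP synthase, at 0.330 (0.00662 to 3.60, with 1 fragment in the CD light fraction) and Mat2a, the S-adenosylmethionine synthase of other tissues, at 0.472. Pitpna, like Pemt, is on the list the study chose on this ratio.

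**Figure D4:**
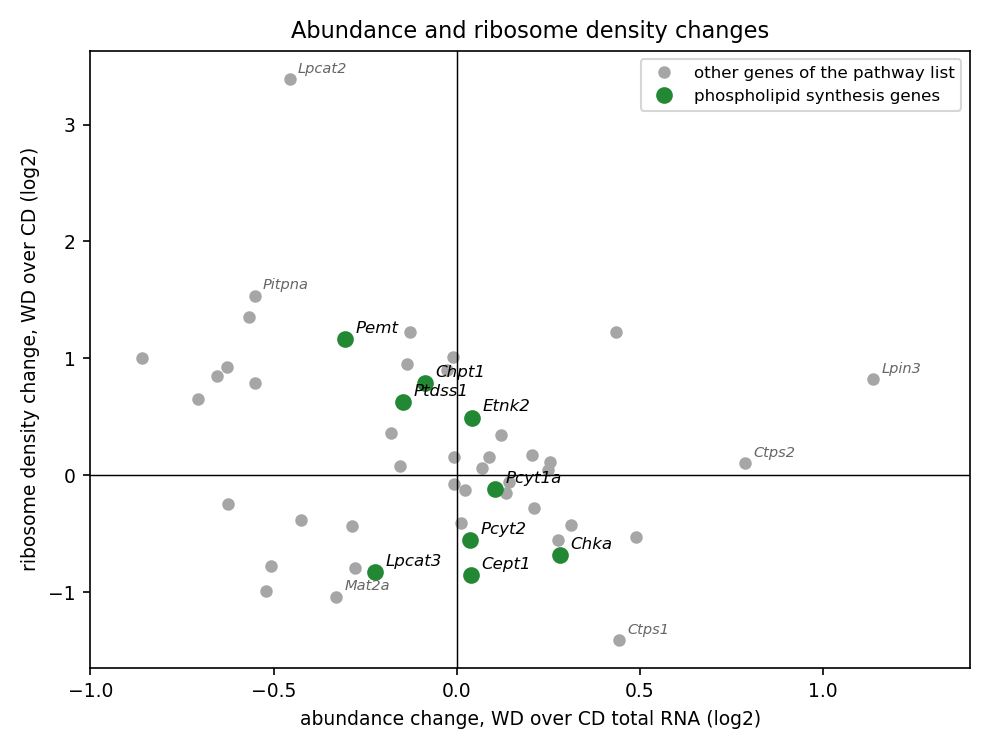
Change in abundance (WD over CD total RNA, log2 scale, horizontal axis) and in ribosome density (log2 scale, vertical axis) for 9 phospholipid synthesis mRNAs (green, labelled) and 41 other genes of the pathway list (grey, 6 of them labelled). The green points stay within -0.30 and 0.28 in abundance and run from -0.85 to 1.16 in ribosome density. Pisd, Slc44a2 and Mboat1, each listed at 0 in a CD fraction, are not drawn.

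Over the 6 libraries the members did not share one pattern. Likeness was taken as the root mean square difference of log2(FPKM + 0.1) after the mean of each mRNA was removed, for which 0 means the same shape. The closest members were Chka and Lpcat3 (0.23) and Pcyt2 and Cept1 (0.31). Pemt was far from each of the others, with Cept1 the nearest at 0.86, and Chpt1 was nearest to Etnk2 at 0.55. Taken from loci that averaged 10 FPKM or more, those most like the members were AABR07070085.1 for Pemt (0.16), the merged locus of Irak1 and Mir5132 for Chpt1 (0.092), Prelid1 for Etnk2 (0.095), Pid1 for Cept1 (0.088), Cpox for Pcyt2 (0.051), Msantd4 for Chka (0.072), Bcar1 for Lpcat3 (0.093), Fam188a for Ptdss1 (0.065) and Mrpl41 for Pcyt1a (0.14). For Pisd the closest, F8a1, was at 1.72. With 6 libraries per mRNA and many loci to choose from, these are descriptions only.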

How the data were processed

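The authors pooled RNA of 3 rats per library and depleted ribosomal RNA. Per the labels, TopHat, Cufflinks and Cuffnorm were then run on the Rnor_6.0 assembly. The deposited values are FPKM per locus, normalized between the 6 libraries by the authors, each with a lower and an upper bound. The annotation is not given in the sources used here, and whether fraction reads took the study's separate Ribo-Seq route is not clear from its methods.

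Analyses used Python 3.11.15, numpy 2.4.6, pandas 2.3.3, scipy 1.17.1 and matplotlib 3.10.9. The loci compared have a symbol, an estimate marked OK in all libraries and a mean no lower than 1 FPKM. A comparison used loci above 0 in each of its libraries, a choice made, like the tolerance below, after values were seen. Log2 changes were computed after adding 0.1 FPKM, and ratios are plain FPKM ratios, except that the thresholds of 1.5 and 0.75 were applied after adding 0.1 FPKM. Fragment numbers were inferred as the smallest whole numbers, up to 600 and within a relative tolerance of 1e-05, that 1 step per locus and 1 factor per library explain. This succeeded for 9197 (69.2%) of 13283 loci above 0 in at least 2 libraries and was tested on simulated data. Multiples would give the same FPKM. These loci held 179318 to 376672 fragments per library, with a median of 9 to 23 per locus compared. Intervals are exact binomial (Clopper-Pearson) for a ratio and exact conditional for a ratio of ratios. Without molecular identifiers, PCR copies are not independent molecules, so intervals cover counting error only.

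The members and lists were chosen with earlier results of these data known. Named genes are all members, the 2 highest and 2 lowest changes of the pathway list in abundance and in ribosome density, and the locus most like each member. Stard10, Bhmt, Ahcy, Pctp, Sardh and Mat1a were named after their values were seen. Alternatives were other pseudocounts, filters and scalings, summed loci, heavy over total RNA, and values listed at 0 kept. Protein and promoter sequences were not used here.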

Additional observations from a re-analysis of the deposited data

Results flagged for a closer look

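For 3 mRNAs the WD to CD ratio in the heavy fraction differed from that in the light fraction by more than counting error, by the exact conditional interval of the ratio of ratios. It was 2.24 for Pemt (1.41 to 3.56), 1.73 for Chpt1 (1.02 to 2.95) and 0.552 for Cept1 (0.328 to 0.926). Of all loci with fragment numbers, 5.63% had such an interval above 1 and 4.33% below. The 3 mRNAs had 31 to 328 fragments per fraction library, against medians of 9 to 23 over loci compared, and more fragments narrow the interval. With libraries rescaled to the same sum the interval of Cept1 included 1 (0.693, 0.412 to 1.16), and with the heavy fraction set against total RNA all 3 did. With 1 library per group the spread between rats is unknown, and the part of the deeper WD light fraction in these values was not tested.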

How the results depend on the processing

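Under the alternatives, 228 single values of the members stayed within their counting interval, or within 1.5 times where there was none, and 2 did not. These were Chpt1 in the light fraction (log2 change -0.77 with libraries rescaled to the same sum) and Pemt ribosome density (0.043 with the heavy fraction over total RNA). In 1 more, Lpcat3 ribosome density turned from -0.83 to 0.19 by the same measure, which is within its counting interval (ratio 0.0875 to 3.62). With that measure, 1 member was at or above a density ratio of 1.5 and 1 at or below 0.75. With libraries rescaled to the same sum, 0 members reached 1.5 in the light fraction and 2 were at or below 0.75 in ribosome density. A pseudocount of 1 FPKM left 1 member at or above 1.5 in the heavy fraction. Keeping values listed at 0, an alternative chosen after seeing the data, put 1 member, Pisd, at or above 1.5 in abundance. The cause was not tested for the measure or the rescaling. The other 69 group medians and counts stayed within the median counting interval or within 1.5 times, although the median density change (-0.12) turned to 0.20 on rescaling and to 0.19 over total RNA, and the median abundance change (0.037) to -0.0055 when changes were centred. Since each member was found at 1 locus, summing loci changed none of them. With a mean of at least 10 FPKM, the shares of all loci at or above 1.5 and at or below 0.75 were 16.0% and 27.9% in the light fraction, 12.5% and 19.2% in the heavy fraction, and 23.0% and 26.3% for ribosome density. No paired analysis was possible because each group has 1 library. Among the 6 members with fragment numbers, depth limits Lpcat3 and Pcyt1a most, with 5 to 56 fragments per fraction library. Pisd and Ptdss1 have no fragment numbers, and their deposited lower bounds are 0 in every library.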
